A study of Mus musculus with 15 samples.

Results

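The genes that acidify and organise the resorption space of the osteoclast were followed in mouse macrophages grown from bone marrow (BMDMs) and profiled by RNA-seq. They were taken by gene symbol, namely *Acp5*, *Car2*, *Clcn7*, *Ostm1*, *Plekhm1*, *Snx10*, *Slc4a2*, *Rab7* and *Rab3d*, and all 9 were found among the 20089 genes of the expression table. The rule named genes by their role in resorption, with no threshold on these values, and left out the proton pump and the cathepsins, which belong to the same machinery.

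Osteoclasts resorb bone in a sealed space beneath the cell. Carbonic anhydrase supplies protons and bicarbonate from CO2 and water, the protons are pumped across a folded membrane called the ruffled border, chloride follows through a lysosomal antiporter, and the bicarbonate leaves on the opposite side of the cell in exchange for chloride. The ruffled border forms where late endosomes and secretory lysosomes fuse with the plasma membrane, which needs Rab GTPases, their effectors and sorting nexins, and inherited loss of *CLCN7*, *OSTM1*, *SNX10*, *PLEKHM1* or *CA2* in humans causes osteopetrosis, a failure of resorption.

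The table held 15 samples in 5 groups of 3. Every group came from wild-type C57BL/6 bone marrow and carried macrophage colony-stimulating factor (M-CSF), given for 3 days per the series' design text. The control had M-CSF alone, and the others also had receptor activator of NF-κB ligand (RANKL), the osteoclast-inducing cytokine, or lipopolysaccharide (LPS), a bacterial activator of macrophages, for 4 h or for 72 h (3 days). The labels give no group with M-CSF alone over the added 72 h, so that there the stimulus and the time in culture cannot be told apart. The labels do not say whether replicates were separate animals or cultures, and p-values then measure only the spread between these samples.

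Values are FPKM, fragments scaled to exon length and library size by the authors, so that levels of different genes can be compared as far as the lengths hold. The length behind the FPKM of *Acp5* was 2882 bases where its named transcript has 1376, and that of *Rab7* 2622 where it has 2159, and the order of levels rests on these lengths. The 15 samples held 18306184 to 20330207 fragments (median 19351141) and the 9 genes 46 to 54975 fragments per sample, the lowest being *Car2* in control replicate 3. Differences were tested as log2(FPKM + 0.1) with limma over 11743 genes, and a gene was called higher when its fold change passed 1.5, or lower when it was under 0.66, each with an unadjusted p under 0.05. Log2 fold changes are on that scale and carry their standard error (SE), and adjusted p means limma with Benjamini-Hochberg adjustment over all 11743 genes. A single gene compared by an exact permutation test of 3 samples against 3 cannot give a p under 0.1, so no permutation p is printed.

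The identity of the cells was checked first. Among 10 osteoclast markers 8 were called higher with RANKL at 72 h and 0 lower (*Ctsk* stood at 1060 against 23.97 FPKM in control), and of 9 LPS response markers all 9 were higher in LPS 4 h. All 7 macrophage markers were above 0 in every group. LPS 72 h replicate 3 stood apart. The median squared deviation of its fragments from those of replicates 1 and 2 was 54.8 and 37.6 times that of sampling alone. This ratio was 8.67 between replicates 1 and 2 and at most 23.0 in any other pair of one group. The summed macrophage markers of replicate 3 were 17150 FPKM against 5797 and 7629, and its summed stromal markers 639 against 146 and 154. Calls of the 9 genes in LPS 72 h are therefore given with and without it. Stromal markers (18 genes) summed to 563 to 2461 FPKM in RANKL 72 h and to 209 to 470 in control, with 14 called higher. Neutrophil markers (10 genes) summed to 1852 to 7461 in RANKL 72 h, 152 to 1816 in LPS 72 h and 7913 to 24350 in control, with 5 called lower in RANKL 72 h and 10 in LPS 72 h. Of the other blood cell markers, 4 of 5 for B cells and 6 of 6 for basophils and mast cells were lower in RANKL 72 h. In LPS 72 h 5 of 5 and 6 of 6 were lower. Of all tested genes, 20.2% were higher and 9.04% lower in RANKL 72 h. In LPS 4 h 8.75% were higher, and in LPS 72 h 16.1% were lower. In such bulk samples fewer cells of a type and less RNA per cell cannot be told apart.

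**Figure D1:**
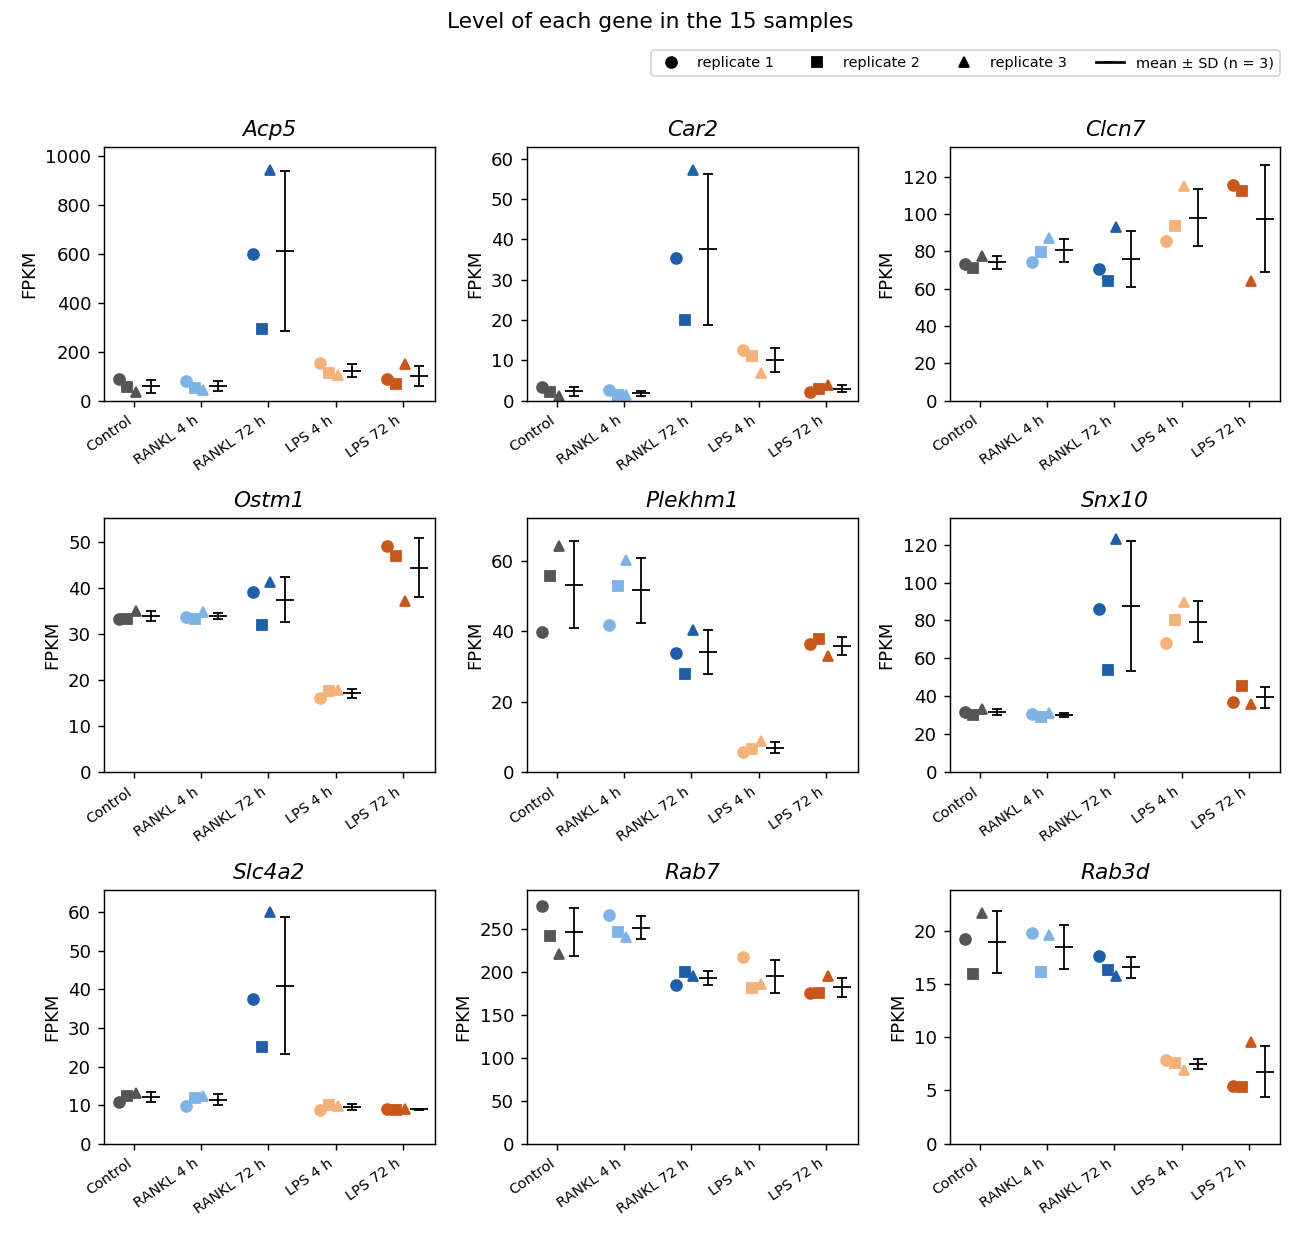
FPKM of each of the 9 genes (y axis, linear, from 0) in the 15 samples, grouped by condition (x axis). Symbols are single samples by replicate number, and the black mark and bar beside them are the mean and SD of 3. *Acp5*, *Car2* and *Slc4a2* were highest in the 3 RANKL 72 h samples, while *Plekhm1*, *Ostm1* and *Rab3d* had low values in LPS 4 h.

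In control cells the 9 genes spanned a wide range of levels. *Rab7*, the GTPase of late endosomes, was the most abundant at 247 ± 28.02 FPKM (SD, n = 3), and *Car2*, the cytosolic carbonic anhydrase II, the least at 2.27 ± 1.08. Between them lay *Clcn7* (74.1 ± 3.34), *Acp5* (58.6, from 33.5 to 87.2), *Plekhm1* (53.3 ± 12.4), *Ostm1* (33.9 ± 1.07), *Snx10* (31.5 ± 1.60), *Rab3d* (18.9 ± 2.90) and *Slc4a2* (12.1 ± 1.30). The ranges of *Clcn7* and *Acp5* overlapped, as did those of *Acp5* and *Plekhm1*, and other neighbours in this order did not. After RANKL for 72 h the order changed. *Acp5* was then the most abundant at 613 ± 326 FPKM, above *Rab7* at 193 ± 7.86, and *Car2* (37.5 ± 18.7) reached the range of *Slc4a2* (41.0 ± 17.7) and *Ostm1* (37.4 ± 4.90). *Acp5* made up 6.68 to 15.2% of the summed FPKM of the 9 genes in control and 40.0 to 60.2% in RANKL 72 h.

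The comparison of RANKL 72 h with control asks which of these genes differ after RANKL and the added time in culture together. In all, 4 of the 9 genes were higher (*Acp5*, *Car2*, *Slc4a2* and *Snx10*), beside 20.2% of all tested genes, and *Plekhm1* was lower, beside 9.04% of all tested genes. The genes that rose were the bicarbonate-producing enzyme, the bicarbonate exporter, the secreted phosphatase and a sorting nexin. The chloride antiporter *Clcn7* and its subunit *Ostm1*, *Rab7* and *Rab3d* were not called. The median log2 fold change was 0.14 over the 9 genes and 0.16 over all tested genes. Higher genes were 69.0% of all genes called, and 47.1% after median centring, in which the median tested gene of every sample is set equal. With that centring the same 4 genes were higher and *Plekhm1* lower.

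*Car2* (carbonic anhydrase II, chromosome 3, 14886273 to 14900770, plus strand, GRCm38) hydrates CO2 to bicarbonate and a proton. It stood at 3.39, 2.19 and 1.22 FPKM in control replicates 1, 2 and 3 and at 35.4, 20.0 and 57.2 in RANKL 72 h. Every RANKL 72 h sample lay well above every control sample. The log2 fold change was 3.97 (SE 0.41, 95% confidence interval 3.06 to 4.89, adjusted p = 2.13e-05), or 15.7-fold, the largest of the 9 genes. Red cells also express carbonic anhydrase II. The summed erythroid markers were 0.0250 to 0.143 FPKM in RANKL 72 h and 3.34 to 11.5 in control. Of the 9 erythroid markers 7 were at 0 in all 3 RANKL 72 h samples. The part of red cells in the *Car2* values was not tested.

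*Slc4a2* (chromosome 5, 24423837 to 24440950, plus strand) encodes the anion exchanger AE2, which moves bicarbonate out and chloride in. Its control samples stood at 10.7, 12.4 and 13.3 FPKM and its RANKL 72 h samples at 37.6, 25.2 and 60.1, with no overlap. The log2 fold change was 1.66 (SE 0.23, adjusted p = 0.000185), or 3.17-fold. The gene overlaps *Fastk* on the minus strand, and without strand information, which is not given in the sources used here, reads of the overlap cannot be told apart. *Fastk* itself stood at 19.0 ± 1.11 FPKM in control and 23.6 ± 2.70 in RANKL 72 h (SD, n = 3).

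*Acp5* (chromosome 9, 22126727 to 22135711, minus strand) encodes tartrate-resistant acid phosphatase (TRAP), the enzyme whose staining identifies osteoclasts. It was 87.2, 55.2 and 33.5 FPKM in control replicates 1 to 3 and 600.1, 293 and 945 in RANKL 72 h. The lowest RANKL 72 h sample was over the highest control sample by a wide margin. The log2 fold change was 3.33 (SE 0.43, 95% confidence interval 2.38 to 4.29, adjusted p = 0.000118), or 10.1-fold. Against the control of the same replicate number the ratios were 6.89, 5.32 and 28.2, and differed more than those of *Snx10* (2.73, 1.81 and 3.71). The labels do not say what a replicate number shares. The ratio of 28.2 sets the highest RANKL 72 h sample against the lowest control sample. The summed LPS response markers were 1049, 512 and 213 FPKM in control replicates 1, 2 and 3, the same order as *Acp5* and *Car2* in these samples. *Ccl5* alone made up 757, 360 and 133 FPKM of these sums. The stromal sums (470, 294 and 209 FPKM) and macrophage sums (9041, 8833 and 7317) had the same order. The sums of the neutrophil, B cell, erythroid, basophil and mast cell, and osteoclast markers had other orders. The part of any of these markers in the spread of *Acp5* and *Car2* was not tested. A noncoding transcript on the plus strand, *6530413G14Rik*, overlaps the locus and was not analysed here.

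*Snx10* (chromosome 6, 51523901 to 51590679, plus strand) encodes a sorting nexin that binds endosomal phosphoinositides and is required for ruffled border formation. It was 31.6, 29.9 and 33.1 FPKM in control and 86.1, 54.0 and 122.8 in RANKL 72 h. The groups did not overlap, and the log2 fold change was 1.39 (SE 0.22, adjusted p = 0.000454), or 2.63-fold. *Plekhm1* (chromosome 11, 103364275 to 103412687, minus strand), an effector of RAB7 in lysosome fusion, was 39.9, 55.7 and 64.4 FPKM in control and 33.9, 27.9 and 40.5 in RANKL 72 h. The highest RANKL 72 h sample exceeded the lowest control sample. The log2 fold change of -0.63 (SE 0.21, adjusted p = 0.0331) was close to the threshold and was no longer called without control replicate 2 (-0.59), control replicate 3 (-0.48) or RANKL 72 h replicate 2 (-0.50), or with FPKM rescaled to equal sums (-0.52).

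The remaining 4 genes moved by less than the threshold of 1.5-fold. *Clcn7* (chromosome 17, 25133391 to 25162104, plus strand), the chloride-proton antiporter ClC-7, was 73.2, 71.3 and 77.8 FPKM in control and 70.5, 64.0 and 92.8 in RANKL 72 h. These ranges overlapped, and the log2 difference of 0.02 had a 95% confidence interval of -0.44 to 0.47. *Ostm1* (chromosome 10, 42583822 to 42702459, plus strand), the subunit that ClC-7 needs for stability, was 33.3, 33.2 and 35.1 FPKM in control and 39.2, 31.9 and 41.2 in RANKL 72 h, with a log2 difference of 0.14 (interval -0.13 to 0.41). Both intervals exclude a rise of the size seen for *Snx10*. *Rab7* (chromosome 6, 87999106 to 88045270, minus strand) was 277, 242 and 221 FPKM in control and 185, 199.9 and 195 in RANKL 72 h, without overlap but under the fold threshold (log2 difference -0.35, SE 0.11, adjusted p = 0.0307). *Rab3d* (chromosome 9, 21907491 to 21918192, minus strand), a GTPase of secretory vesicles, was 19.2, 15.9 and 21.7 FPKM in control and 17.6, 16.3 and 15.8 in RANKL 72 h, with overlap and a log2 difference of -0.18 (interval -0.61 to 0.25). Antisense transcripts overlap *Ostm1* (*Gm15200*), *Plekhm1* (*Arhgap27os1*) and *Rab7* (*Gm5577*), which were not analysed here.

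Promoter letters are shown for *Snx10* and *Acp5*, which rose under RANKL, and for *Clcn7*, which was not called. RefSeq promoters (GRCm38.p6, 250 bases before to 50 after a start) were found for 8 of the 9 genes, 15 in all, and *Car2* had no entry. Searched on both strands were CACGTG (E-box), TCATGTG (M-box), TGANTCA (AP-1), TGGAAA (NFAT) and GAGGAAG (PU.1). They were held by 1, 2, 1, 3 and 0 of the 15 promoters, against 7.15%, 3.77%, 7.81%, 21.4% and 13.6% of all 32851 promoters. Among the genes called in RANKL 72 h, *Snx10* held AP-1 letters, in its promoter at chr6:51523834-51524133, plus strand, beginning 98 bases before the start. *Acp5* at chr9:22130549-22130848, minus strand, and *Clcn7* at chr17:25133141-25133440, plus strand, were chosen after the matches were seen, the first as a gene that rose and the second as a gene that did not. Capitals mark the AP-1 letters in *Snx10*, the M-box on the opposite strand in *Acp5* (90 bases before the start) and both E-boxes in *Clcn7* (15 bases before and 7 after the start). The other M-box was in another *Clcn7* promoter, 42 bases before its start, and NFAT letters stood in 1 promoter each of *Acp5*, *Clcn7* and *Snx10*.
Snx10: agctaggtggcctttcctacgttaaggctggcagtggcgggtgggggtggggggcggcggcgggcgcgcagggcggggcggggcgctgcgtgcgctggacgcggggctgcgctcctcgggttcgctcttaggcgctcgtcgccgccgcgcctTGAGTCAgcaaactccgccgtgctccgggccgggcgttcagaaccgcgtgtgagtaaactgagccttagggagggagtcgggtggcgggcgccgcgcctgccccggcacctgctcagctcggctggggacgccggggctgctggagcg
Acp5: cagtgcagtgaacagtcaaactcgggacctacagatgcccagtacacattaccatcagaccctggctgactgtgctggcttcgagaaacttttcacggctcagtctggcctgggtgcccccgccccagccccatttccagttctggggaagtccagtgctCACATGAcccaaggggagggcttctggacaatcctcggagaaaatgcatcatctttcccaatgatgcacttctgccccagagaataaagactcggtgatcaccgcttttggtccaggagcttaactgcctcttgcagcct
Clcn7: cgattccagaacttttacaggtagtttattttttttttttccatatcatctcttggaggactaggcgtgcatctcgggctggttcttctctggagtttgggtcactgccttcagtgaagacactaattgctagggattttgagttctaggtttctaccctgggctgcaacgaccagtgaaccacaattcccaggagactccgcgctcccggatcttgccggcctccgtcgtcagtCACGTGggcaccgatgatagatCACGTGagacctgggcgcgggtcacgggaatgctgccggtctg
The E-box letters thus stood in the promoter of *Clcn7*, which was not called under RANKL, and not in the other promoters searched. A match is a run of letters and does not show binding.

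**Figure D2:**
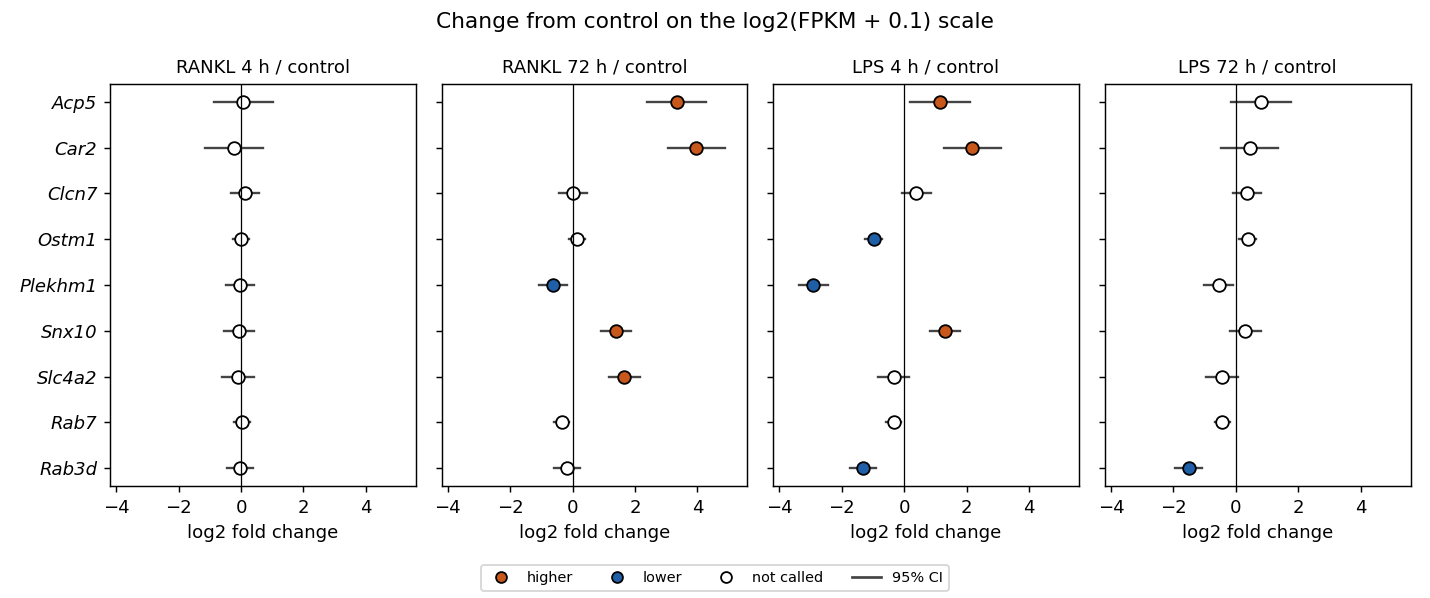
Log2 fold change against control (x axis) of the 9 genes (y axis) in the 4 stimulated groups. Points are limma estimates from 3 samples per group, bars their 95% confidence intervals, and fill marks a call as higher or lower. No gene was called in RANKL 4 h, 4 were higher and 1 lower in RANKL 72 h, 3 were higher and 3 lower in LPS 4 h, and *Rab3d* alone was called in LPS 72 h.

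The RANKL 72 h samples differed in the levels of these genes. Replicate 3 was the highest and replicate 2 the lowest for 7 of the 9 genes, the exceptions being *Rab7* and *Rab3d*. Among the 7 were *Clcn7* and *Ostm1*, which were not called. *Plekhm1*, which was lower than control, was also among them, so that replicate 3 (40.5 FPKM) was there the nearest to control. The share of all tested genes with this order was not counted. The highest sample was 3.22 times the lowest for *Acp5*, 2.86 for *Car2*, 2.39 for *Slc4a2* and 2.27 for *Snx10*, but 1.08 for *Rab7* and 1.12 for *Rab3d*. The same order held for 9 of 10 osteoclast markers, whose sum was 2784, 1608 and 4768 FPKM in replicates 1, 2 and 3. The stromal markers ran in another order, 2461, 1158 and 563 FPKM, so the sample with the highest *Acp5* and *Car2* had the lowest stromal sum. The neutrophil markers summed to 7461, 3657 and 1852 in the same samples. The part of either cell type in the differences was not tested. The calls of *Acp5*, *Car2*, *Slc4a2* and *Snx10* were kept in all 17 alternatives run for each, leaving out any 1 sample of the groups compared included.

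**Figure D3:**
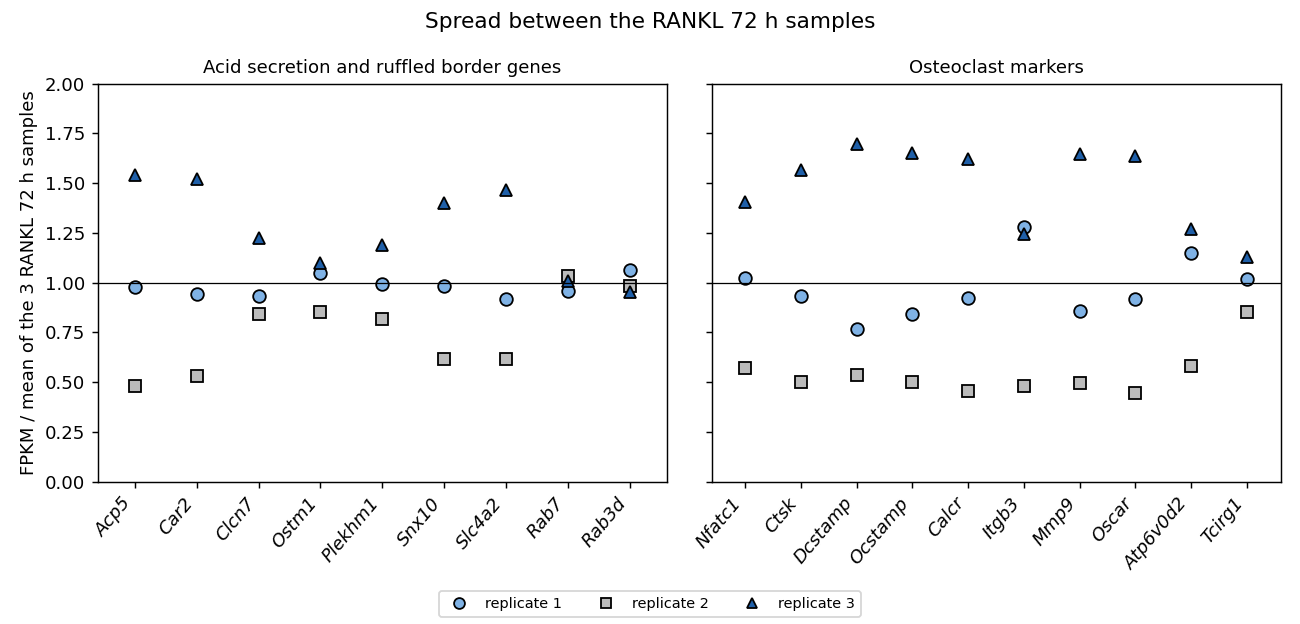
Each gene's FPKM in the 3 RANKL 72 h samples divided by their mean (y axis, 1 is the mean), for the 9 genes (left) and 10 osteoclast markers (right). Symbols are replicates 1, 2 and 3. Replicate 3 is on top and replicate 2 at the bottom for 7 of 9 genes and for 9 of 10 markers.

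At 4 h of RANKL none of the 9 genes was called, while 1.21% of all tested genes were higher and 1.35% lower. Their log2 differences from control ran from -0.22 (*Car2*) to 0.12 (*Clcn7*), none had an unadjusted p under 0.05 by limma, and limma voom on recovered fragments also called 0. *Acp5* stood at 81.0, 53.2 and 43.6 FPKM, *Car2* at 2.60, 1.498 and 1.44, *Slc4a2* at 9.73, 11.9 and 12.5 and *Snx10* at 30.5, 28.9 and 31.1, each overlapping with the control. The interval of the difference was wide for *Acp5* (-0.88 to 1.03) and *Car2* (-1.14 to 0.69), and narrower for *Ostm1* (-0.27 to 0.27). That of *Car2* does not exclude a 2-fold fall, and that of *Acp5* does not exclude a 2-fold rise. Compared directly, RANKL 72 h was above RANKL 4 h for *Car2* (log2 fold change 4.20, SE 0.41, adjusted p = 1.58e-05), *Acp5* (3.26, SE 0.43, adjusted p = 0.000134), *Slc4a2* (1.76, SE 0.23, adjusted p = 0.000125) and *Snx10* (1.46, SE 0.22, adjusted p = 0.00036). These 4 stood beside 20.1% of all tested genes called higher, with none of the 9 lower beside 8.24%. *Plekhm1* at -0.60 (adjusted p = 0.0431) fell just short of the fold threshold. Higher genes were 70.9% of those called, and 47.6% after median centring, which also called *Plekhm1* (-0.82) and *Rab7* (-0.60) lower.

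LPS for 4 h moved more of the 9 genes than RANKL did at that time, and in both directions. The same held over all tested genes, of which 5846 were called in LPS 4 h and 301 in RANKL 4 h. *Car2*, *Snx10* and *Acp5* were higher, beside 8.75% of all tested genes, and *Plekhm1*, *Rab3d* and *Ostm1* were lower, beside 41.0% of all tested genes. The whole distribution was shifted, with a median log2 fold change of -0.52 over all tested genes and -0.34 over the 9. Higher genes were 17.6% of all genes called as deposited and 55.0% after median centring.

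*Plekhm1* had the largest fall. It stood at 5.65, 6.47 and 8.82 FPKM in LPS 4 h against 39.9 to 64.4 in control, a log2 fold change of -2.91 (SE 0.21, 95% confidence interval -3.37 to -2.45, adjusted p = 1.27e-07), or 7.53-fold lower, and -2.35 with median centring. *Rab3d* was 7.84, 7.58 and 6.95 FPKM, below every control sample, with a log2 fold change of -1.32 (SE 0.19, adjusted p = 6.71e-05). *Ostm1* was 16.1, 17.6 and 17.8 FPKM, a log2 fold change of -0.98 (SE 0.12, adjusted p = 1.67e-05) that became -0.41 and was no longer called with median centring.

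Among the genes that rose, *Car2* was 12.6, 10.96 and 6.78 FPKM in LPS 4 h, all above the control, with a log2 fold change of 2.17 (SE 0.41, adjusted p = 0.000503), or 4.51-fold. Its RANKL 72 h samples were higher still and did not overlap with these. *Snx10* was 68.1, 80.1 and 89.7 FPKM, a log2 fold change of 1.32 (SE 0.22, adjusted p = 0.000174), a level that lay within the range of its RANKL 72 h samples. *Acp5* was 153, 113 and 104 FPKM, with a log2 fold change of 1.16 (SE 0.43, adjusted p = 0.031). That call was lost without control replicate 3 (0.81) or LPS 4 h replicate 1 (0.99). The 3 other genes were not called: *Clcn7* at 85.8, 93.3 and 115 FPKM (log2 difference 0.39, interval -0.06 to 0.85), *Rab7* at 218, 181 and 186 FPKM (-0.34, interval -0.59 to -0.09) and *Slc4a2* at 8.71, 10.1 and 9.67 FPKM (-0.34, interval -0.85 to 0.16). With median centring *Clcn7* was called higher (0.96), and *Rab7* and *Slc4a2* changed sign without a call (0.23 and 0.22).

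At 72 h of LPS most of these differences were smaller. *Rab3d* was lower, beside 16.1% of all tested genes, and none of the 9 genes was higher, beside 14.9%. *Rab3d* stood at 5.44, 5.30 and 9.55 FPKM against 15.9 to 21.7 in control, a log2 fold change of -1.51 (SE 0.19, adjusted p = 8.08e-05), and of -1.79 without replicate 3. All 10 neutrophil markers were lower in the same group, and their part in this fall was not tested. *Plekhm1* was 36.5, 37.9 and 33.0 FPKM, just under the lowest control sample, with a log2 difference of -0.55 (SE 0.21, adjusted p = 0.0529) that was called without control replicate 1 (-0.74) or with median centring (-0.63). Without LPS 72 h replicate 3 the difference of *Plekhm1* was -0.49 and was not called.

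LPS 72 h replicate 3 decided the call of *Clcn7*. The gene was 116, 112 and 64.3 FPKM, and its log2 difference from control was 0.35 (adjusted p = 0.198) with all samples and 0.62, called higher, without replicate 3. *Acp5* was 86.7, 67.5 and 148 FPKM, highest in that same replicate, with a log2 difference of 0.81 (adjusted p = 0.156) and of 0.49 without it. It was called higher when control replicate 1 (1.15) or LPS 72 h replicate 2 (1.06) was left out. *Ostm1* was 49.1, 46.9 and 37.1 FPKM, above all control samples but under the fold threshold (log2 difference 0.38, SE 0.12, adjusted p = 0.026, and 0.50 without replicate 3). *Car2* (2.22, 2.76 and 3.88 FPKM), *Snx10* (36.8, 45.5 and 35.9), *Slc4a2* (8.95, 8.87 and 8.88) and *Rab7* (176, 176 and 195) were not called, with log2 differences of 0.44, 0.31, -0.44 and -0.43, and were not called without replicate 3 either.

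Between 4 h and 72 h of LPS, 4 of the 6 genes called at 4 h moved back towards control. The 6 were picked by the same LPS 4 h samples that enter this comparison, which favours movement back. *Plekhm1* (log2 fold change 2.36, SE 0.21, adjusted p = 5.75e-07) and *Ostm1* (1.36, SE 0.12, adjusted p = 6.73e-07) were higher at 72 h, beside 45.0% of all tested genes. *Car2* (-1.73, SE 0.41, adjusted p = 0.002) and *Snx10* (-1.01, SE 0.22, adjusted p = 0.00102) were lower, beside 14.3% of all tested genes. The other 2, *Acp5* at a log2 difference of -0.35 (interval -1.30 to 0.61) and *Rab3d* at -0.19 (interval -0.62 to 0.24), were not called. Without LPS 72 h replicate 3 the same 4 genes were called, at 2.42, 1.48, -1.94 and -0.94. *Rab3d* was then at -0.46 (adjusted p = 0.00922), short of the fold threshold, and *Acp5* at -0.66 (adjusted p = 0.215). The median over all tested genes was 0.52, and higher genes were 75.8% of those called, or 40.6% after median centring. That centring called *Clcn7*, *Rab3d*, *Rab7* and *Slc4a2* lower as well, at -0.69, -0.84, -0.74 and -0.74.

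Setting RANKL beside LPS at the same time compares the stimuli without the control. At 4 h, *Plekhm1* (log2 fold change 2.88, SE 0.21, adjusted p = 1.25e-07), *Rab3d* (1.29, SE 0.19, adjusted p = 7.63e-05) and *Ostm1* (0.98, SE 0.12, adjusted p = 1.51e-05) were higher in RANKL, beside 42.5% of all tested genes. *Car2* (-2.40, SE 0.41, adjusted p = 0.000222), *Snx10* (-1.38, SE 0.22, adjusted p = 0.000113) and *Acp5* (-1.08, SE 0.43, adjusted p = 0.0406) were lower, beside 9.31%. The *Acp5* call was lost without RANKL 4 h replicate 2 (-1.03) or 3 (-0.88) or LPS 4 h replicate 1 (-0.92). Higher genes were 82.0% of those called, and 45.6% after median centring. Then *Ostm1* (0.41) was not called and *Clcn7* (-0.84) was lower.

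At 72 h, 5 of the 9 genes were higher in RANKL than in LPS, beside 25.1% of all tested genes, and none lower, beside 13.8%. They were *Car2* (log2 fold change 3.53, SE 0.41, adjusted p = 1.47e-05), *Acp5* (2.53, SE 0.43, adjusted p = 0.000322), *Slc4a2* (2.10, SE 0.23, adjusted p = 8.07e-06), *Rab3d* (1.33, SE 0.19, adjusted p = 9.74e-05) and *Snx10* (1.08, SE 0.22, adjusted p = 0.0012). For *Rab3d* this difference came with a low value in LPS 72 h, since its RANKL 72 h level was not called against control. Without LPS 72 h replicate 3 the 5 calls stood at 3.74, 2.84, 2.10, 1.60 and 1.02, and *Clcn7* was called lower in RANKL (-0.61, against -0.33 with all samples). *Plekhm1* at -0.08 (interval -0.54 to 0.38), *Rab7* at 0.08 (interval -0.16 to 0.33) and *Ostm1* at -0.24 (interval -0.51 to 0.03) were not called. Without that replicate they stood at -0.14, 0.13 and -0.37, again not called. For *Ostm1* the adjusted p was then 0.013, with the difference short of the fold threshold. Higher genes were 64.6% of all genes called and 53.1% with median centring, where the same count of 5 members held.

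**Figure D4:**
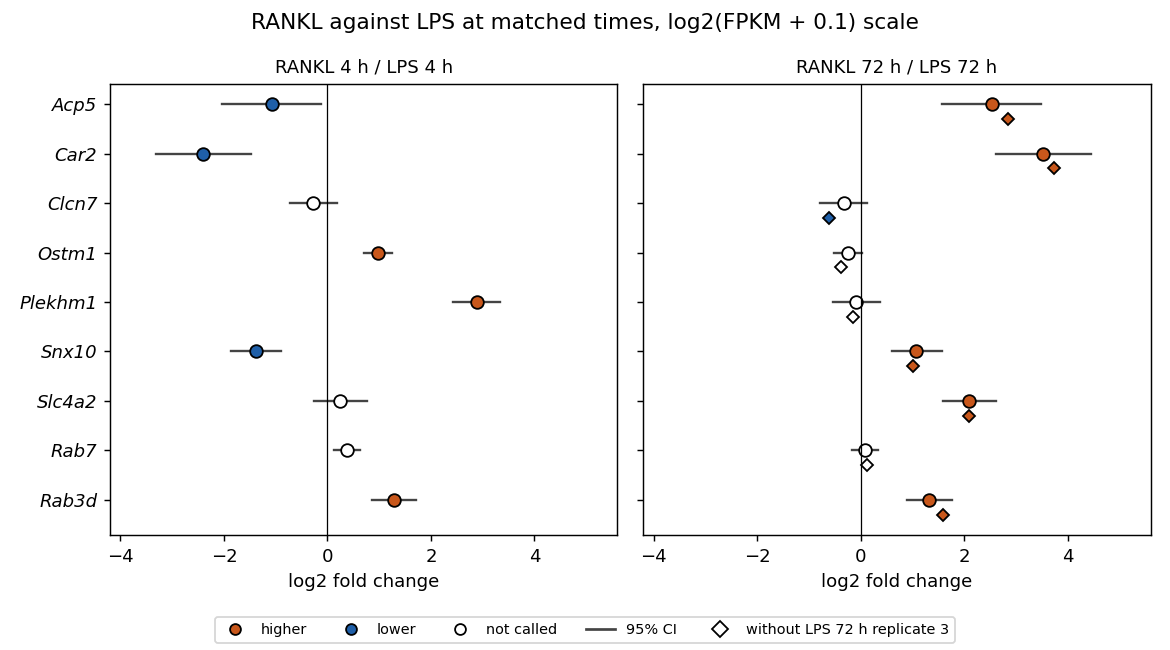
Log2 fold change of RANKL over LPS (x axis) for the 9 genes (y axis) at 4 h (left) and 72 h (right). Circles are limma estimates from 3 samples per group with 95% confidence intervals, diamonds the 72 h estimates without LPS 72 h replicate 3, and fill marks a call. *Car2*, *Acp5* and *Snx10* were lower in RANKL at 4 h and higher at 72 h.

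Genes with related roles were read from lists that hold none of the 9. Among 5 tested carbonic anhydrases 1 was higher and 1 lower in RANKL 72 h, beside 20.2% and 9.04% of all tested genes. *Car5b*, the mitochondrial form, was higher (1.74 against 0.518 FPKM, log2 fold change 1.58, adjusted p = 0.00926). *Car15* was lower (0.114 against 0.260 FPKM, log2 fold change -0.74, adjusted p = 0.0798). In LPS 4 h the cytosolic *Car13* was higher, at 104 ± 4.72 FPKM against 24.8 ± 3.87 in control (log2 fold change 2.08, adjusted p = 1.83e-07). It stood above *Car2* (10.1 ± 3.01) in that group. In RANKL 72 h the mean of *Car2* (37.5 ± 18.7) was above that of *Car13* (19.9 ± 3.52). The samples overlapped there, and in replicate 2 *Car13* (23.4) was above *Car2* (20.0).

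Of 20 tested chloride and acid-base transporters 7 were higher in RANKL 72 h and none lower, beside 20.2% and 9.04% of all tested genes, with a median log2 fold change of 0.39 beside 0.16 over all tested genes. With median centring 5 were higher. *Slc9b2*, a sodium-proton antiporter known from osteoclasts, was 0.294, 0.424 and 0.376 FPKM in control and 48.1, 26.8 and 75.1 in RANKL 72 h. Its log2 fold change was 6.64 (SE 0.34, adjusted p = 1.14e-07), larger than that of any of the 9 genes. Its 3 samples had the order of *Acp5* and *Car2*. *Slc16a3*, the lactate-proton exporter MCT4, was 97.0 ± 2.20 FPKM against 17.0 ± 9.47 (log2 fold change 2.67, adjusted p = 0.000257), and *Slc9a5*, a sodium-proton exchanger, 2.89 ± 0.299 against 0.546 ± 0.0749 (2.21, adjusted p = 0.000663). In LPS 4 h 3 were higher and 5 lower, beside 8.75% and 41.0% of all tested genes, and 4 and 2 with median centring, with *Clic4* at 450 ± 56.4 against 79.6 ± 1.34 FPKM (log2 fold change 2.49, adjusted p = 1.37e-08).

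Of 35 tested genes of ruffled border and late endosome traffic 3 were higher and 6 lower in RANKL 72 h, beside 20.2% and 9.04% of all tested genes, and 1 and 9 with median centring. Their median log2 fold change was -0.06. *Rab38*, a GTPase of lysosome-related organelles, was 10.9, 4.42 and 15.1 FPKM against 1.03, 1.04 and 0.919 in control (log2 fold change 3.06, SE 0.35, adjusted p = 4.74e-05), again highest in replicate 3 and lowest in replicate 2. *Rab27a*, a GTPase of lysosome secretion, was lower (4.67 ± 2.54 against 13.1 ± 4.67 FPKM, -1.54, adjusted p = 0.0149), as was *Rab7b* (32.0 ± 7.31 against 69.6 ± 12.1 FPKM, -1.13, adjusted p = 0.000732), a relative of *Rab7*. In LPS 4 h 3 of these genes were higher and 12 lower, beside 8.75% and 41.0% of all tested genes, and 6 and 6 with median centring. *Rab7b* fell there to 8.10 ± 1.86 FPKM (log2 fold change -3.10, adjusted p = 3.11e-08), beside the fall of *Plekhm1*, and both were higher again at 72 h of LPS.

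**Figure D5:**
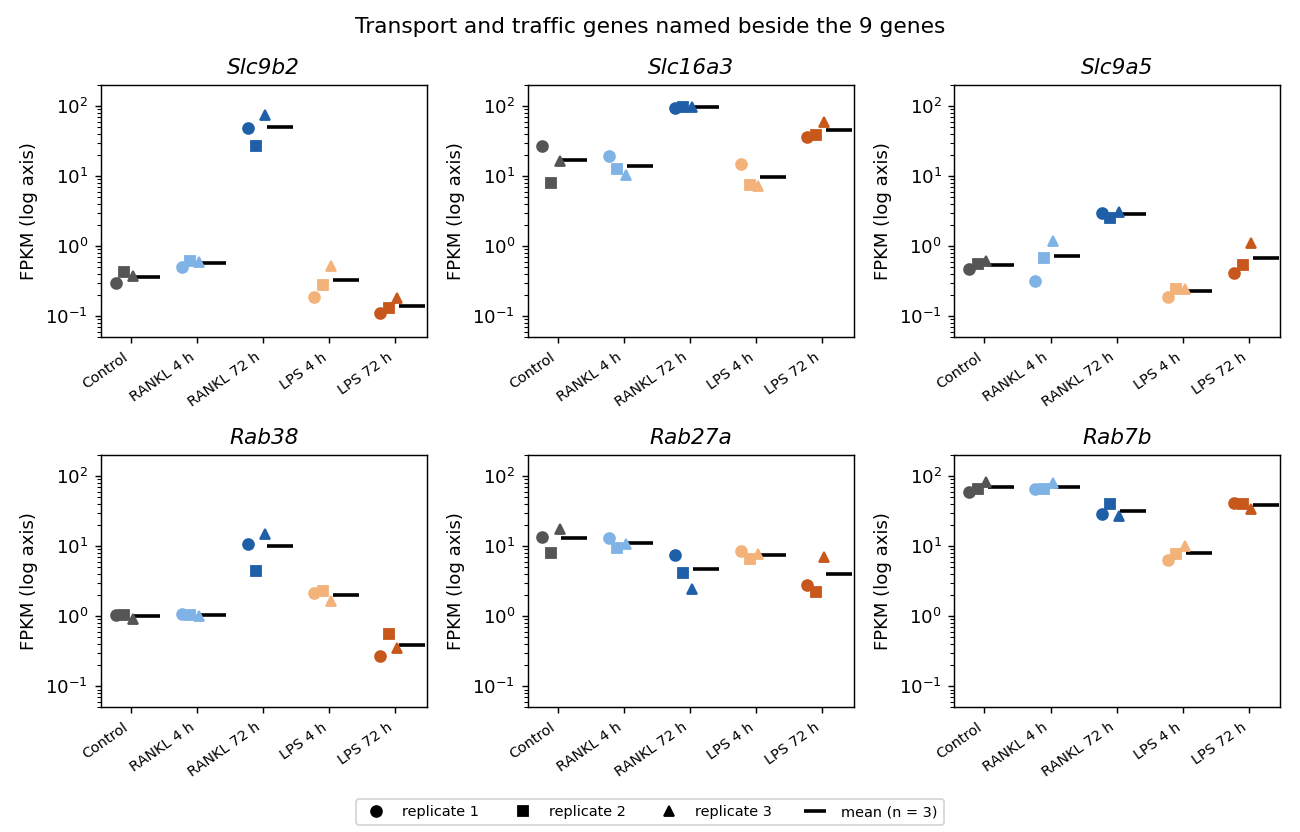
FPKM (y axis, log scale) of 6 transport and traffic genes in the 15 samples by condition (x axis). Symbols are single samples by replicate number and black marks means of 3. *Slc9b2* and *Rab38* were highest in the 3 RANKL 72 h samples, and *Rab7b* was lowest in LPS 4 h.

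The microphthalmia family (*Mitf*, *Tfeb*, *Tfe3*, *Tfec*) encodes factors that bind E-box and M-box letters and act on lysosomal genes. None of the 4 was called in RANKL 72 h, beside 20.2% of all tested genes higher and 9.04% lower, and 1 was lower after median centring. In LPS 4 h *Tfeb* fell from 10.7 ± 1.13 to 1.35 ± 0.317 FPKM (log2 fold change -2.92, adjusted p = 2e-08), while *Mitf* (23.1 ± 3.80 against 11.7 ± 1.90 FPKM, 0.97, adjusted p = 0.000418) and *Tfec* (27.5 ± 4.92 against 11.2 ± 0.854 FPKM, 1.28, adjusted p = 0.000393) rose.

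Over the 15 samples and 9486 genes that averaged 1 FPKM or more, the genes most like each of the 9 were sought by Pearson's r of log2(FPKM + 0.1), a description over samples that share 5 groups. *Acp5* and *Car2* were each other's nearest gene (r = 0.95, Spearman's rho = 0.97). *Gstt1* (0.948) and *Cdkn2b* (0.947) came next for *Acp5*, and *Jdp2* (0.952) and *Gstt1* (0.942) for *Car2*. *Snx10* was nearest to *Ext1* (0.977), *Prdm1* (0.970) and *Myo10* (0.962), and *Slc4a2* to *Arsb* (0.988), *Cyp2s1* (0.968) and *Plxna4* (0.968). *Plekhm1* was nearest to *Plin3* (0.981), *Pdp1* (0.974) and *Mtmr10* (0.972), *Ostm1* to *Coq10a* (0.987), *Taco1* (0.984) and *Nudt18* (0.983), and *Clcn7* to *Fbrs* (0.922), *Csnk2a2* (0.914) and *Srpr* (0.873). *Rab7* was near to *Adgrg1* (0.948) and *Mvb12a* (0.929), and *Rab3d* to *C2cd5* (0.969), *Ncapg2* (0.968) and *Ctdspl* (0.967).

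The 9 genes did not move as 1 group. *Acp5* and *Slc4a2*, both high in RANKL 72 h, had r = 0.78 but rho = 0.10, since outside that group they had different orders. *Clcn7* and its partner subunit *Ostm1* had r = -0.09 and rho = 0.14, and *Plekhm1* and *Rab7*, effector and GTPase, r = 0.39 and rho = 0.53. *Ostm1* and *Plekhm1* had r = 0.86 with rho = 0.39, as both were low in LPS 4 h.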

How the data were processed

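RNA-seq of mouse BMDMs (15 samples, 5 groups of 3) was analysed, with groups and replicate numbers from the labels. The authors deposited FPKM per gene and sample, made with StringTie; the builds in the submitters' processing notes are GRCm38.p4 and mm10. Of the table, 20089 genes were complete and 1 line was cut off. FPKM were whole multiples of the worth of 1 fragment, and fragments were recovered for 14485 of 14485 genes above 0 in at least 3 samples (tolerance 0.01; on simulated data 2876 of 3000 genes were exact). Intervals of counting error are not given, since amplified fragments are not independent molecules.

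Log2(FPKM + 0.1) was fitted with limma 3.58.1 (R 4.3.3; lmFit, eBayes with trend) in 1 fit of the 5 groups, over 11743 genes averaging 0.1 FPKM or more. The thresholds on fold and p are the study's. On simulated data for RANKL 72 h against control (11743 genes), 91 of 108 genes changed 2-fold and 87 of 92 changed 4-fold were recovered, and 255 of 11543 unchanged genes were called. Tables and figures used Python 3.11.15, numpy 2.4.6, pandas 2.3.3, scipy 1.17.1 and matplotlib 3.10.9.

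Alternatives were a pseudocount of 1 or 0.01, other filters, 2 other scalings, only the groups compared, a replicate block, no trend, adjusted p, limma voom on recovered fragments and leaving out each replicate. Deviations of same-numbered samples correlated in every pair above 0.1 for control with RANKL 4 h (0.842, 0.707 and 0.743), RANKL 72 h (0.318, 0.136 and 0.184) and LPS 4 h (0.624, 0.616 and 0.44), and for RANKL 4 h with LPS 4 h and RANKL 72 h, but not for LPS 72 h with control, RANKL 72 h or LPS 4 h. The labels do not say what a number shares.

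The 9 genes, the marker and pathway lists and the tests were chosen with earlier results of these data known. Named are the 9 genes in every comparison, of each pathway list up to 3 called genes with the largest change in RANKL 72 h at a mean of at least 1 FPKM and genes of a defining role, and the 3 genes most like each member, of which 1 is not reported here. *Car5b*, *Car13*, *Car15*, *Clic4* and *Fastk* were added after their values were seen. Positions are those of GENCODE M21 (GRCm38).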

Additional observations from a re-analysis of the deposited data

Results flagged for a closer look

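These 8 results were flagged because the effects of one stimulus at 4 h and at 72 h against the same control differed, as tested by the direct contrast of 72 h with 4 h in the limma fit. Under RANKL the log2 difference between the times was 3.26 for *Acp5*, 4.20 for *Car2*, 1.46 for *Snx10* and 1.76 for *Slc4a2*, each higher in 3 of 3 samples at 72 h. Under LPS it was -1.73 for *Car2* and -1.01 for *Snx10*, lower in 3 of 3 samples at 72 h, and 1.36 for *Ostm1* and 2.36 for *Plekhm1*, higher in 3 of 3. At 72 h the stimulus and the time in culture cannot be told apart.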

How the results depend on the processing

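Of the 72 log2 fold changes (9 genes in 8 comparisons), recomputed in up to 17 alternatives each, 1195 values kept the direction of any call and the side of the threshold, 29 crossed the threshold and 0 reversed a call, and the cause of each crossing was not tested. LPS 72 h against control gave 1 called member as reported, 2 with median centring, and 1 to 3 when 1 replicate was left out (3 without control replicate 1, and 2 without LPS 72 h replicate 2 or 3). LPS 72 h against LPS 4 h gave 4 called members as reported and 8 with median centring. Over all tested genes, called genes in RANKL 4 h against control numbered 301 as reported, 189 with a pseudocount of 1 and 14 with an adjusted p under 0.05. Median centring took LPS 4 h against control from 5846 to 3724 called genes and RANKL 4 h against LPS 4 h from 6082 to 3792. The replicate block changed the call of 0 of the 72 values. With every replicate number in each group it cannot change a log2 fold change, only the SE and p. For *Plekhm1* in RANKL 72 h against control, the adjusted p of limma was 0.0331 without the block and 0.0105 with it. With SEs of 0.43 for *Acp5* and 0.41 for *Car2*, the log2 intervals of these genes reach about 2-fold either way, and *Car2* in control rests on 46 to 137 fragments.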
